A study of Homo sapiens with 9 samples.

Results

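The comparison described here sets 3 arrays of Hec50 cells that received a scrambled small RNA against 3 arrays of mock transfected Hec50 cells, and follows the response across 19775 genes. Hec50 is an established human endometrial cancer line, so all samples share 1 line and 1 growth medium (DMEM with serum). The scrambled RNA was a negative control used at 60 nM, with RNA extracted after 48 hours. For the mock group the labels give neither a time nor what the transfection mixture held. The whole series holds 9 arrays, and its remaining 3 arrays carry RNA of Hec50 cells given a mimic of miR-200c at the same dose and for the same time. Members were chosen by array title (6 of 9 arrays) and by annotation, keeping the 41091 of 54675 probe sets that name exactly 1 gene.

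A short duplex RNA that enters a cell can be loaded onto an Argonaute protein, which then pairs with messenger RNAs mainly through the seed at the 5′ end of the loaded strand. Scrambled controls are designed to have no intended target, yet any loaded strand has a seed of its own. Such a strand can occupy the Argonaute proteins that endogenous microRNAs use. The duplex can also be met by sensors of double-stranded RNA such as RIG-I, MDA5, TLR3 and PKR, whose activation raises interferon-stimulated genes. A mock transfection has none of this RNA. The letters of the scrambled RNA are not given in the sources used here, so no seed matches could be counted for it. The mature sequence of the RNA that the mimic copies is shown because the mimic arrays are the second group that received a small RNA; it was read from RefSeq records on GRCh38.p14 (chr12:6963742-6963764, plus strand), with bases 2 to 8, the seed, in capitals.
hsa-miR-200c-3p: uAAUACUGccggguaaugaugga

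The values are the authors' deposited log2 expression, centred so that the median of each probe set over the 9 arrays is 0. A value of 0.5 therefore means 0.5 above that gene's own median array on the log2 scale, and levels cannot be compared between genes. A gene's level class (8 or more, 4 to 8, or below 4 on the log2 scale) was recovered from number rounding. Differences are scrambled minus mock, tested with limma on all 9 arrays; the call threshold was an adjusted p (Benjamini-Hochberg, over all genes) under 0.05. "Rose" and "fell" below refer to called genes only. Nothing in the labels states that the replicates are separate cultures. The p-values therefore reflect the spread among these arrays alone, and that spread may be technical. In bulk RNA a change in every cell and a change in the share of cells in some state cannot be told apart.

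Before the genes, the arrays themselves. Between replicates of the mock and scrambled groups the SD of differences over genes was 0.112 to 0.136, and 2.42% to 3.03% of genes held identical values. Mock replicate 3 and scrambled replicate 2 stood apart from their group mates: 25 and 34 genes lay more than 0.5 from both mates, against 0 to 5 genes on the other 4 arrays, and 28 of the 34 lay below. Control probe sets also moved with the group. The ACTB probe set near the 5′ end of the message read 0.16, 0.18 and 0.22 on the mock arrays and −0.10, −0.16 and −0.10 on the scrambled arrays, whereas the 3′ probe set differed by only −0.03, so that the 3′ minus 5′ value was −0.18 ± 0.03 (SD, n = 3) in mock and 0.10 ± 0.04 (SD, n = 3) in scrambled samples. GAPDH showed 3′ minus 5′ values of 0.03 ± 0.04 and 0.01 ± 0.02 (SD, n = 3 each). The probe set in the middle of 28S ribosomal RNA was higher by 0.72 after the scrambled RNA (limma adjusted p = 0.00419 among all probe sets), and that of 18S by 0.60 (adjusted p = 0.115). The mean of 9 hybridisation spike probe sets (bioB, bioC, bioD and cre) read −0.05, −0.07 and −0.16 on the mock arrays. On the scrambled arrays it read 0.03, 0.09 and 0.00, a difference of 0.13, and no test was made of it. The part of RNA quality, labelling or hybridisation in the gene results was not tested, and these values apply beside every group of genes below.

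**Figure D1:**
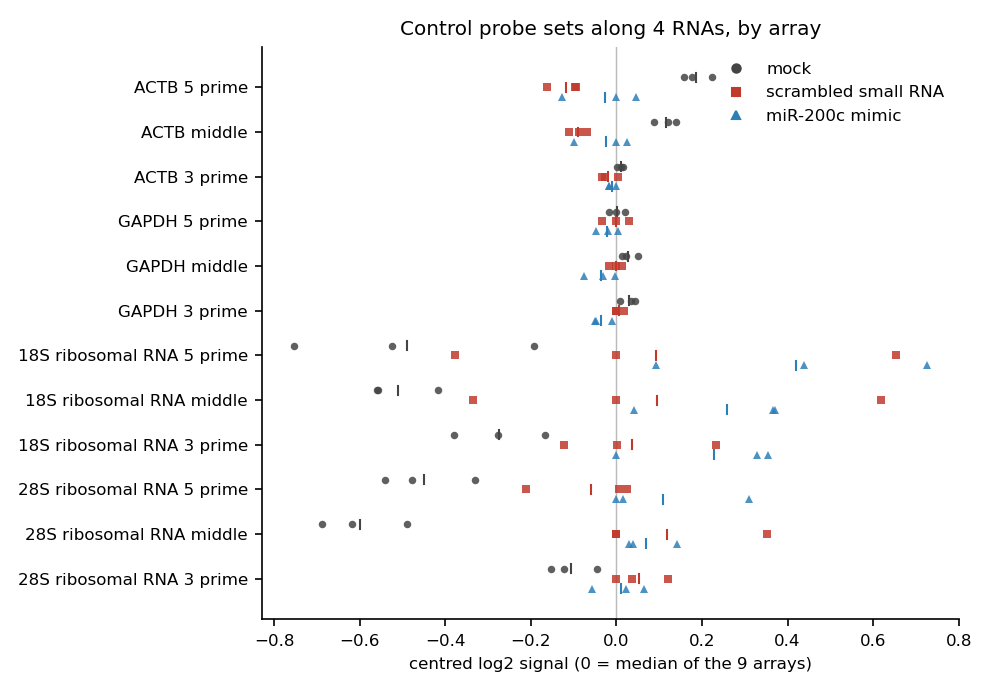
Centred log2 signal (x axis, 0 is the median of the 9 arrays) of control probe sets along ACTB, GAPDH, 18S and 28S RNA (y axis), with 1 symbol per array and a vertical tick at each group mean. The mock arrays lie above both small RNA groups at the ACTB 5′ and middle probe sets and below them at the middle of 28S, while GAPDH shows no such spread.

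The response was broad and small. Of 19775 genes 1495 were called (7.56%): 990 fell (5.01%) and 505 rose (2.55%) after the scrambled RNA, and the median difference over all genes was 0.02. The median standard error of a difference was 0.06. With probe sets as units, 1609 of 41091 fell (3.92%) and 748 rose (1.82%). Only 36 genes (0.182%) fell and 1 gene, IGSF5, rose (0.00506%) by at least 1.5-fold. In the highest class (8 or more), 796 of 9661 genes fell (8.24%) and 354 rose (3.66%); from 4 to 8 the counts were 189 (2.32%) and 137 (1.68%) of 8154, and below 4 they were 5 (0.256%) and 14 (0.716%) of 1956. The 3 scrambled arrays lay entirely below the 3 mock arrays for 2992 genes (15.1%) and entirely above them for 2902 (14.7%). At an unadjusted p under 0.05 the counts were 2375 lower and 2346 higher. Leaving out 1 array changed the adjusted counts by over 1.5 times in most cases. Without mock replicate 1 there were 526 falls and 187 rises, without mock replicate 2 565 and 207, and without mock replicate 3 592 and 366. Without scrambled replicate 1 there were 627 falls and 304 rises, without scrambled replicate 2 679 and 261, and without scrambled replicate 3 549 and 197. Single genes were as open to this: of 219 called genes among those described here or in the lists under 100 members, 99 lost the call without at least 1 array and 85 without each of at least 3 arrays left out singly, and 134 without both arrays that stand apart. Another limit is the probe set. Without probe sets of shared specificity, those marked _x_at or _s_at, 54 of the 177 such genes that could be tested lost the call.

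The 15 largest falls among genes whose groups did not overlap ran from −1.28 to −0.67 on the log2 scale (2.43-fold to 1.59-fold), and 13 of the 15 genes were at a level of 8 or more. LRRC4B, a leucine-rich repeat protein of the neuronal cell surface, fell furthest. It has 1 probe set, at a level of 4 to 8. Its mock arrays read 0.97, 0.96 and 1.11 and its scrambled arrays −0.15, −0.74 and 0.07, a 2.43-fold difference (log2 change −1.28, SE 0.16, adjusted p = 0.00153). All 3 mock arrays stood above all others, with scrambled replicate 2 the lowest of the 9.

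MMP1, the interstitial collagenase, read 0.11, 0.20 and 0.29 in mock and −0.72, −0.46 and −0.55 in scrambled samples (1.71-fold lower, SE 0.07, adjusted p = 0.00048). EMP2, a tetraspan membrane protein related to PMP22, read 0.10, 0.02 and 0.06 against −0.70, −0.62 and −0.81, a 1.70-fold fall in which 3 of its 4 probe sets were called lower. STEAP3, a ferrireductase of endosomal iron uptake, was 1.68-fold lower and both of its probe sets were called. For these 3 genes the scrambled arrays lay well below the mock arrays, with a gap wider than the range within either group.

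SPOPL, a substrate adaptor of cullin-3 ubiquitin ligases, had tight groups: −0.02, 0.00 and 0.04 in mock and −0.77, −0.69 and −0.70 in scrambled samples (1.65-fold lower, SE 0.04, adjusted p = 9.27e-05). ALDH1A3, a retinaldehyde dehydrogenase, was at −0.64, −0.63 and −0.64 in scrambled samples, with mock arrays between 0.00 and 0.22 (1.63-fold lower, adjusted p = 0.00048). This rests on 1 of its 2 probe sets, and the other differed by 0.05. ERLIN2, a protein of the endoplasmic reticulum membrane, was 1.60-fold lower with 2 of 3 probe sets called, and without probe sets of shared specificity it was at −0.03 (adjusted p = 0.818). In each of these genes the 3 scrambled arrays lay close together. They lay below every mock array by the rule that chose the genes.

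HMOX1, heme oxygenase 1, an inducible enzyme of heme breakdown, read 0.65, 0.54 and 0.99 in mock and −0.04, 0.00 and 0.00 in scrambled samples (1.67-fold lower, SE 0.12, adjusted p = 0.00666). RDX, which encodes radixin and links actin to the membrane, was 1.59-fold lower with 3 of 4 probe sets called (SE 0.05, adjusted p = 0.00024). SWAP70, an actin-associated signalling protein, was 1.62-fold lower, with mock arrays at 0.42, 0.42 and 0.56 and scrambled arrays at −0.29, −0.25 and −0.15. Its 3 probe sets differed by −1.14 to −0.07, and 1 was called. CNOT3, a subunit of the CCR4-NOT complex that shortens poly(A) tails, was 1.63-fold lower, with mock arrays at 0.58, 0.66 and 0.60 and scrambled arrays at −0.09, −0.17 and 0.00. The remaining falls of this size were those of YWHAH, a 14-3-3 protein, and SLC1A1, a glutamate transporter (each 1.63-fold lower), GDF15 and AKT1S1. YWHAH had 1 of 3 probe sets called and another at 0.13, whereas both probe sets of SLC1A1 were called. GDF15, a secreted stress cytokine, rested on 1 of its 3 probe sets and did not pass without probe sets of shared specificity (−0.03, adjusted p = 0.824), and CNOT3 was at −0.24 there (adjusted p = 0.208). AKT1S1, an inhibitor of mTORC1, had scrambled replicate 2 at −0.98 beside −0.09 and −0.03; its SE was 0.19 and its adjusted p 0.0406, none of its probe sets passed alone, and without scrambled replicate 2 its difference was −0.44 (adjusted p = 0.00287). AKT1S1 lost its call in 5 of 17 alternative settings, among them the fits without mock replicate 1, mock replicate 2 or mock replicate 3 (highest adjusted p = 0.104).

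**Figure D2:**
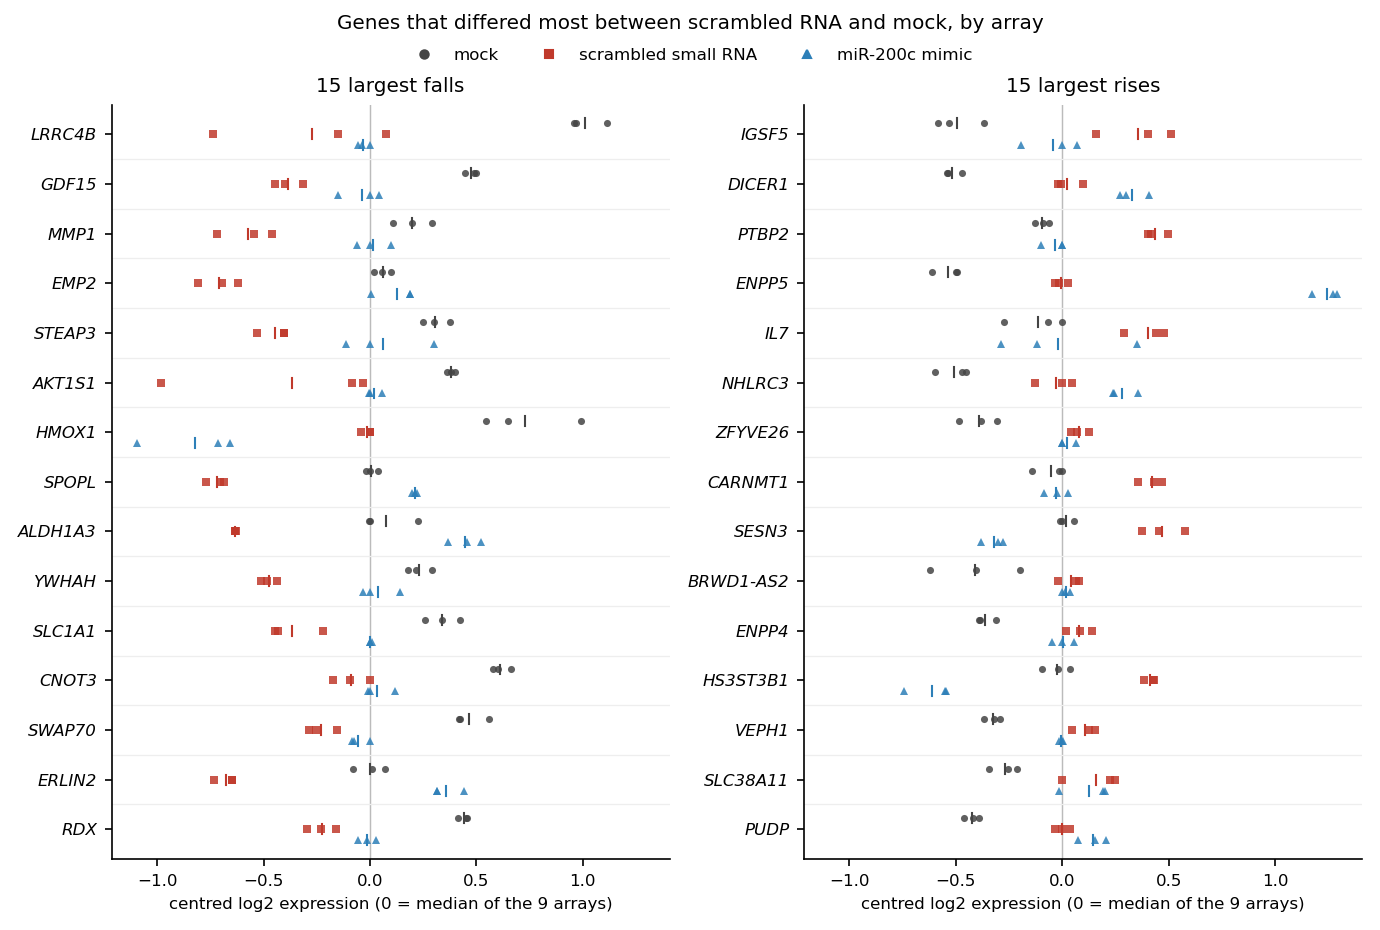
Centred log2 expression (x axis) of the 15 largest falls (left) and 15 largest rises (right) between scrambled RNA and mock (y axis, genes), with 1 symbol per array and a vertical tick at each group mean. Mock circles and scrambled squares do not overlap in any of these genes by the rule that chose them, and the mimic triangles lie beside mock in some genes (EMP2, PTBP2) and beside the scrambled RNA in others (LRRC4B, ZFYVE26).

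Rises were smaller, from 0.43 to 0.85 (1.34-fold to 1.80-fold) for the 15 largest, of which 10 were at a level of 8 or more. IGSF5, a junctional adhesion protein of the immunoglobulin superfamily, read −0.53, −0.58 and −0.37 in mock and 0.16, 0.51 and 0.40 in scrambled samples (1.80-fold higher, SE 0.10, adjusted p = 0.00106). This gene has 1 probe set, at a level of 4 to 8. DICER1, the nuclease that cuts precursor microRNAs to length, read −0.54, −0.54 and −0.47 against 0.00, 0.10 and −0.02 (1.45-fold higher, SE 0.05, adjusted p = 0.000486), and 3 of its 6 probe sets were called higher. PTBP2, the neuronal polypyrimidine tract binding protein, read −0.13, −0.06 and −0.09 against 0.40, 0.41 and 0.50 (1.45-fold higher, adjusted p = 0.000472). That call rests on 1 of 2 probe sets, and the other was at 0.11. In all 3 genes every scrambled array lay above every mock array, as the rule that chose the 15 largest rises required.

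The related ectoenzyme genes ENPP5 and ENPP4, of the pyrophosphatase and phosphodiesterase family, were 1.44-fold and 1.36-fold higher, with both probe sets of each called. SESN3, a stress-inducible sestrin, was 1.37-fold higher on 1 of 7 probe sets, and with the mean of all its probe sets it did not pass (0.17, adjusted p = 0.0918). NHLRC3, 1.39-fold higher on 1 of 3 probe sets, also did not pass with the mean of all (0.08). Its lowest probe set was at −0.25, in the other direction, and was not called. IL7, the lymphoid cytokine interleukin 7, was 1.43-fold higher with an SE of 0.14 and lost its call in 9 of 16 alternative settings. The other rises of this size were those of ZFYVE26, an endosomal zinc finger protein (1.39-fold), the carnosine methyltransferase gene CARNMT1 (1.39-fold, 1 of 2 probe sets called and the other at 0.12), HS3ST3B1, a heparan sulfate sulfotransferase (1.36-fold), VEPH1 (1.35-fold), SLC38A11 (1.35-fold), PUDP, a pseudouridine phosphatase (1.34-fold), and the antisense transcript BRWD1-AS2 (1.37-fold), whose probe set may also read its partner, since strand use by the array was not checked.

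The miR-200c mimic arrays show what the same genes did after another small RNA. Both differences from mock use the same 3 mock arrays, and the mimic minus scrambled difference uses the same scrambled arrays, so the values are set side by side without a measure of likeness. LRRC4B was at −1.04 (SE 0.16) after the mimic and −1.28 after the scrambled RNA, and the difference between the 2 RNAs did not pass (0.24, adjusted p = 0.383). CNOT3 was at −0.58 and −0.70 (mimic minus scrambled 0.12, adjusted p = 0.2), and SWAP70 at −0.52 and −0.70 (0.18, adjusted p = 0.0631). ZFYVE26, ENPP4, VEPH1, SLC38A11 and BRWD1-AS2 rose by 0.32 to 0.43 after the mimic and by 0.43 to 0.47 after the scrambled RNA, and none of these 5 differed between the RNAs (lowest adjusted p = 0.141). A p that misses the threshold does not show equal values.

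Other genes passed the test after the scrambled RNA and did not pass after the mimic. EMP2 was at 0.07 after the mimic against mock (adjusted p = 0.553) and 0.83 above the scrambled samples (adjusted p = 1.32e-05). PTBP2 was at 0.06 (adjusted p = 0.466) and 0.47 below the scrambled samples (mimic minus scrambled −0.47, adjusted p = 9.31e-05), and CARNMT1 at 0.02 and −0.45. For MMP1 and STEAP3 the mimic minus mock differences were −0.19 and −0.24 (adjusted p = 0.115 and 0.0954). In these 5 genes the mimic differed from the scrambled RNA with adjusted p of at most 0.00354.

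A further set went in opposite directions. SPOPL rose by 0.20, ERLIN2 by 0.36 and ALDH1A3 by 0.37 after the mimic while each fell after the scrambled RNA, and the mimic minus scrambled differences were 0.93, 1.03 and 1.08 (highest adjusted p = 2.46e-06), with the limit on ERLIN2 given above. SESN3 and HS3ST3B1 were the reverse, at −0.34 and −0.59 after the mimic and 0.45 and 0.44 after the scrambled RNA. HMOX1 fell further with the mimic, to −1.55 below mock, and ENPP5 and DICER1 rose further, by 1.78 and 0.84. The mimic minus scrambled difference of these genes therefore includes the difference of the scrambled group from mock.

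**Figure D3:**
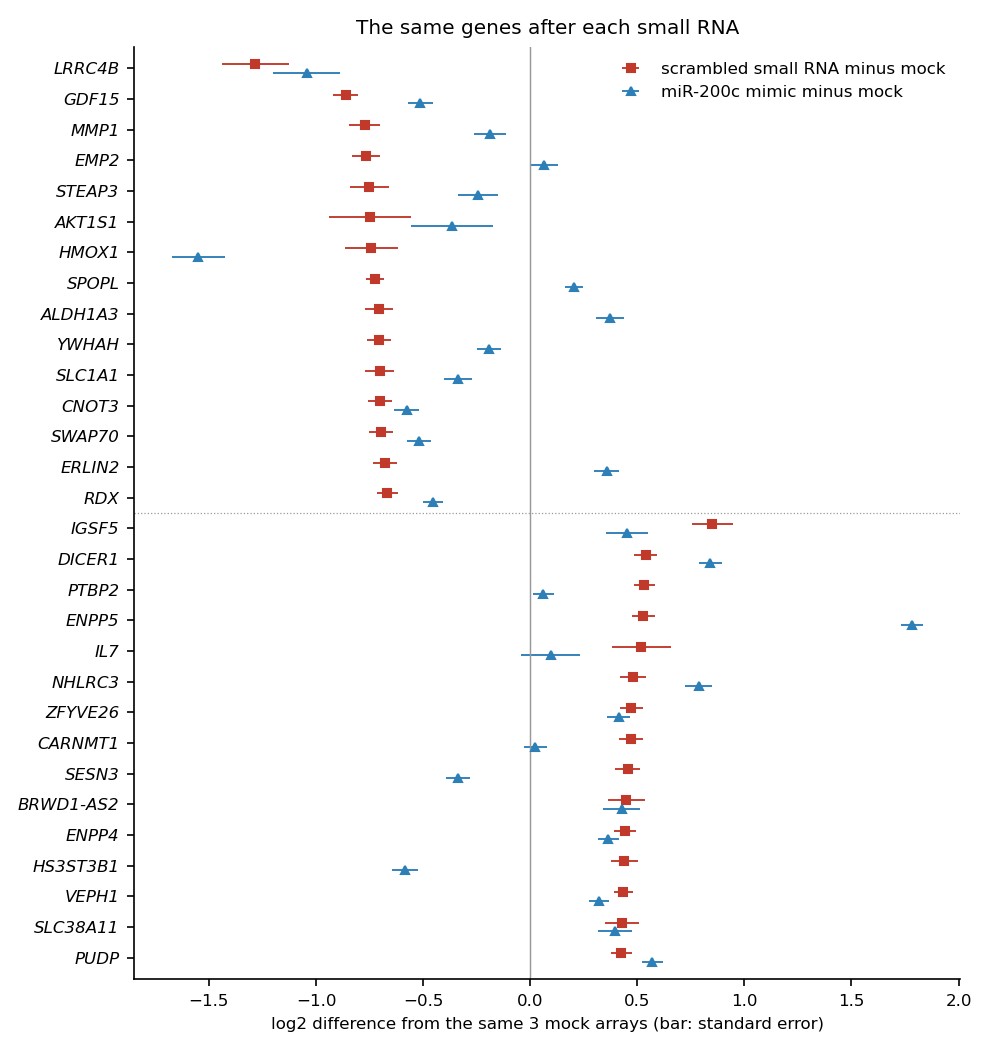
Log2 difference from mock (x axis, bars are standard errors) after the scrambled RNA (squares) and after the miR-200c mimic (triangles) for the 15 largest falls (above the dotted line) and 15 largest rises (below) of the scrambled comparison. Both series share the 3 mock arrays; triangles lie near the squares for LRRC4B, CNOT3 and ZFYVE26, near 0 for EMP2 and PTBP2, and across 0 for ALDH1A3, ERLIN2, SESN3 and HS3ST3B1.

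Genes of small RNA handling include those that make the cell's own microRNAs. Others, such as the Argonaute genes, are ones that a transfected duplex can use as well. Of 27 measured members, DICER1 rose (3.70%, against 2.55% of all genes), TNRC6A fell (3.70%, against 5.01%) and 25 did not pass, with a median difference of 0.03. TNRC6A, the GW182 scaffold that ties Argonaute to mRNA decay, read 0.26, 0.22 and 0.29 in mock and 0.07, −0.08 and −0.01 in scrambled samples (1.20-fold lower, adjusted p = 0.00969, with 2 of 6 probe sets called lower). This single fall was lost without both arrays that stand apart and without probe sets of shared specificity, where TNRC6A was at −0.02 (adjusted p = 0.874). The 4 Argonaute genes did not pass: AGO2, the slicing Argonaute, was at −0.04 (SE 0.04), AGO1 and AGO3 at 0.17 each (SE 0.07 and 0.06) and AGO4 at −0.12 (SE 0.05). XPO5, which exports precursor microRNAs, was at −0.05 and DROSHA, which makes them, at 0.13, neither of which passed. DICER1 mRNA is itself a known target of let-7 and of other microRNAs, which is background and not a result here.

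Among double-stranded RNA sensors and interferon-stimulated genes no rise was called in the main fit. A fit of genes at a level of 8 or more alone called 1 rise, and the other alternatives called 0. IFIH1 passed in 1 alternative (lowest limma adjusted p = 0.0443). Of 52 measured members 0 rose and 10 fell with limma (19.2%, against 5.01% of all genes), with a median difference of −0.06, and at an unadjusted p under 0.05 there were 3 higher and 21 lower. IRF9, the DNA-binding partner in the interferon-activated complex ISGF3, read −0.05, 0.00 and 0.00 in mock and −0.46, −0.59 and −0.79 in scrambled samples (1.51-fold lower, SE 0.10, adjusted p = 0.00793). IFITM1, a membrane protein that restricts virus entry, was 1.43-fold lower (SE 0.14, adjusted p = 0.044). OASL, an oligoadenylate synthetase-like protein, was at 0.26, 0.19 and 0.09 against −0.18, −0.28 and −0.32 (1.36-fold lower, adjusted p = 0.00247), and the ubiquitin ligase gene DTX3L was 1.26-fold lower. Scrambled arrays lay below mock arrays in each of these genes.

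The sensor RIGI fell by a small amount (1.17-fold, adjusted p = 0.0254) and so did IRF3, a transcription factor downstream of the sensors (1.16-fold, adjusted p = 0.0203). The remaining falls were those of RSAD2, ISG20, IFIT3 and HERC5, from 1.29-fold to 1.17-fold. IFITM1, RIGI, IRF3, RSAD2, ISG20, IFIT3 and HERC5 each lost the call without at least 3 of the 6 arrays left out singly, whereas IRF9, OASL and DTX3L kept it whichever single array was left out. IFIH1, which encodes MDA5, was at 0.14 (adjusted p = 0.106), TLR3 at 0.07 (adjusted p = 0.509), the interferon gene IFNB1 at 0.00 (SE 0.06), ISG15 at −0.25 (adjusted p = 0.0906), IFIT1 at 0.13 (adjusted p = 0.283) and MX1 at −0.05 (adjusted p = 0.557). EIF2AK2, the kinase PKR, was at −0.15 (adjusted p = 0.0634). After the mimic, 6 members of the list were higher and 0 lower than mock (8.15% and 10.1% of all genes), and 20 were higher and 1 lower than the scrambled samples (7.43% and 6.75% of all genes). The count of 10 falls rests on few arrays: it was 3 without mock replicate 1, mock replicate 2 or mock replicate 3, 5 without scrambled replicate 1, 4 without scrambled replicate 2, 7 without scrambled replicate 3 and 2 without both arrays that stand apart.

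The integrated stress response held the largest share of falls of any list examined. In this pathway kinases that sense amino acid shortage, unfolded proteins, heme lack or double-stranded RNA phosphorylate the initiation factor eIF2, which slows translation and favours synthesis of the transcription factor ATF4; ATF4, alone or with C/EBP partners, then raises amino acid transporters, tRNA synthetases, serine and glycine enzymes and feedback genes. Of 40 measured members 17 fell (42.5%, against 5.01% of all genes), 0 rose and 23 did not pass with limma; at an unadjusted p under 0.05 there were 24 lower and 2 higher. Their median difference was −0.19, against 0.02 over all genes. At a level of 8 or more, 16 of 34 fell, against 8.24% of all genes there.

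Among the transport genes, SLC7A11, the cystine and glutamate exchanger, read 0.37, 0.23 and 0.35 in mock and −0.16, −0.13 and 0.01 in scrambled samples (1.33-fold lower, SE 0.06, adjusted p = 0.00284). SLC3A2, the heavy chain shared by several amino acid transporters, read 0.09, 0.01 and 0.14 against −0.34, −0.34 and −0.27 (1.32-fold lower, adjusted p = 0.00341). SLC7A5, its partner in the large neutral amino acid transporter, read 0.04, −0.06 and 0.03 against −0.27, −0.48 and −0.32 (1.28-fold lower, adjusted p = 0.0127). In all 3 the scrambled arrays were lower than every mock array.

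The feedback and regulatory genes showed the same direction. DDIT4, an inhibitor of mTORC1, was 1.34-fold lower (mock 0.12, 0.26 and 0.30; scrambled −0.19, −0.13 and −0.27; adjusted p = 0.00213). TRIB3, a pseudokinase that restrains ATF4, was 1.26-fold lower (adjusted p = 0.0113), CEBPB 1.23-fold lower (adjusted p = 0.00624), NUPR1 1.20-fold lower, DDIT3, which encodes CHOP, 1.18-fold lower (adjusted p = 0.0292), and PPP1R15A, which encodes the phosphatase subunit GADD34, 1.18-fold lower (adjusted p = 0.0386). CEBPG, a dimer partner of ATF4, was 1.15-fold lower (adjusted p = 0.0232). The secreted factors GDF15 and STC2 were 1.82-fold and 1.19-fold lower, with the limit on GDF15 given above.

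Enzymes on this list fell too. PHGDH, the first enzyme of serine synthesis, was tight in mock at 0.22 on all 3 arrays and read −0.08, −0.03 and −0.14 after the scrambled RNA (1.24-fold lower, adjusted p = 0.00884). SHMT2, the mitochondrial serine hydroxymethyltransferase, was 1.18-fold lower (adjusted p = 0.00721). The tRNA synthetase genes GARS1 and WARS1 were 1.15-fold and 1.14-fold lower, and EIF2S1, which encodes the alpha subunit of eIF2, was 1.17-fold lower (adjusted p = 0.0158). Of the 17 falls, those of CEBPG, DDIT3, NUPR1, PPP1R15A, EIF2S1, GARS1 and WARS1 were lost without each of at least 3 arrays. Members that did not pass included ATF4 itself at −0.10 (SE 0.04, adjusted p = 0.195), ATF3 at −0.10, CHAC1 at −0.09 and ASNS, asparagine synthetase, at 0.05 (SE 0.05, adjusted p = 0.599). The kinase genes EIF2AK1, EIF2AK3 and EIF2AK4 were at 0.07, 0.09 and 0.18 and did not pass.

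After the mimic, 4 members of the stress list were higher and 9 lower than mock (8.15% and 10.1% of all genes), and 16 were higher and 2 lower than the scrambled samples (7.43% and 6.75% of all genes). SLC7A5 and TRIB3 were at 0.12 and 0.08 above mock with the mimic, neither called, and 0.48 and 0.41 above the scrambled samples (adjusted p = 0.000821 and 0.00112), whereas SLC7A11 was at −0.37 from mock with the mimic and 0.03 from the scrambled samples. The count of 17 falls was 10 without mock replicate 1, 9 without mock replicate 3, 10 without scrambled replicate 1, and 12 to 14 without any 1 of the other 3 arrays. Without both arrays that stand apart it was 6, and without probe sets of shared specificity it was 10.

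**Figure D4:**
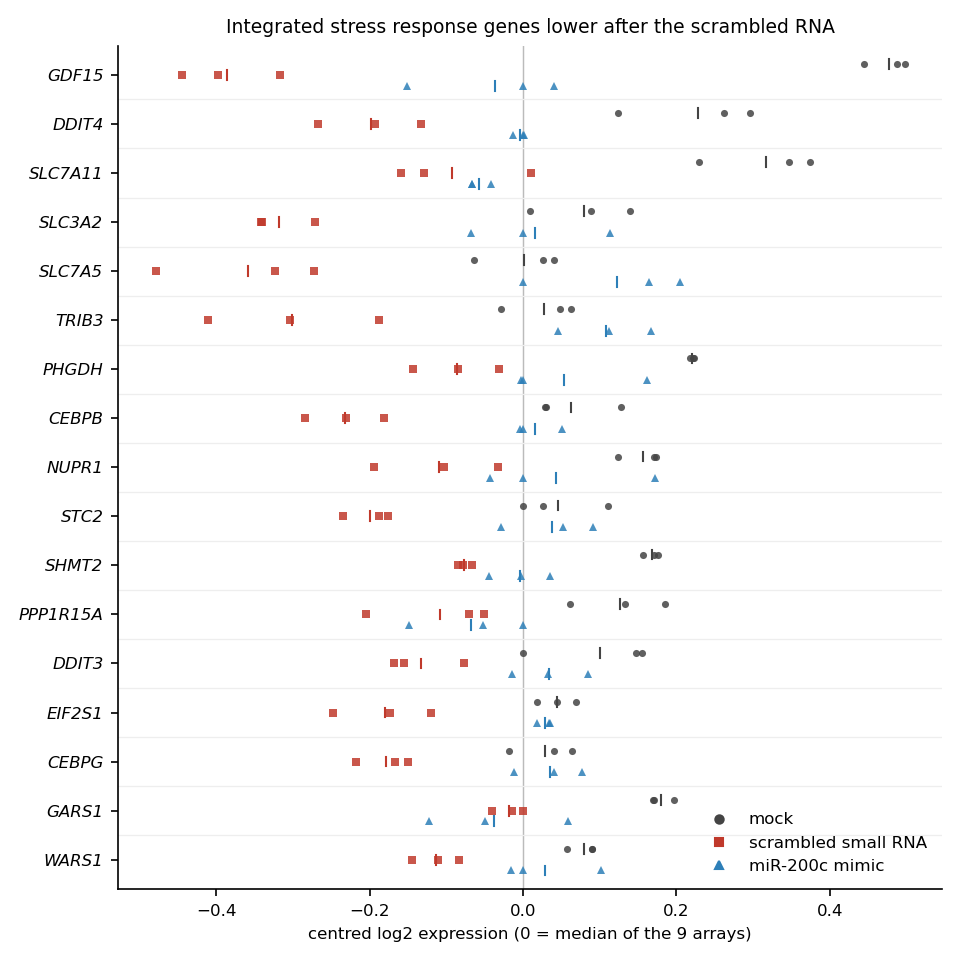
Centred log2 expression (x axis) of the 17 integrated stress response genes that fell after the scrambled RNA (y axis), with 1 symbol per array and a vertical tick at each group mean. Scrambled squares lie left of mock circles in every gene shown, and the mimic triangles lie near mock for SLC7A5, TRIB3 and CEBPB and near the scrambled RNA for SLC7A11 and GARS1.

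ATF4 with a C/EBP partner binds composite elements of the form TGATGNAA, so the promoters of list members were searched for those letters on both strands, in the 250 bases before the start of transcription (RefSeq promoters, GRCh38.p14). Promoters were matched for 34 of the 40 members, and 8 held a match (23.5%), against 1104 of 35116 promoters in the table (3.14%) and 3.19% of genes tested. Matches stood in 2 of 14 members that fell, CEBPG and GARS1 (14.3%), and in 6 of 20 that did not pass (30%). Over the 810 genes that fell and had a promoter in the table, 14 held a match (1.73%). Both promoters of members that fell are shown with those of ASNS and CHAC1, which held a match and did not pass; capitals mark the match, or its reverse complement where it lies on the other strand, as in GARS1 and CHAC1. The stretches lie at chr19:33374045-33374104 (plus strand), chr7:30594819-30594877 (plus strand), chr7:97872443-97872502 (minus strand) and chr15:40953236-40953295 (plus strand).
CEBPG: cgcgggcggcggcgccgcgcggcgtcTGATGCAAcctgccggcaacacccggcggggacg
GARS1: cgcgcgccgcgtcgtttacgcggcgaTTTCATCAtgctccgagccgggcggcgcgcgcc
ASNS: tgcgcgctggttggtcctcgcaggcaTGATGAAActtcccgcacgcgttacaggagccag
CHAC1: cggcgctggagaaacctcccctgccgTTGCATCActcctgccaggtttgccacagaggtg
The first letter of the match lies 42, 33, 68 and 209 bases before the start site. Letters that match in this window are a description and do not show binding.

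Neighbouring stress lists held smaller shares of falls. Of 29 unfolded protein response genes 4 fell (13.8%, against 5.01% of all genes) and 0 rose (1 at an unadjusted p under 0.05): the chaperones CALR (1.40-fold), P4HB (1.23-fold) and CANX (1.15-fold), and DERL1 (1.14-fold). At a level of 8 or more, 4 of 26 fell (15.4%, against 8.24% of all genes there). Without probe sets of shared specificity CANX was at 0.06, CALR at −0.40 (adjusted p = 0.112) and P4HB at −0.21 (adjusted p = 0.0982). Of 32 heat shock chaperones, DNAJB1 (1.47-fold, adjusted p = 0.000567), DNAJB6 (1.17-fold) and HSPB1 (1.19-fold) fell, and of 33 antioxidant genes HMOX1, SLC7A11, the epoxide hydrolase gene EPHX1 (1.30-fold) and the glutathione reductase gene GSR (1.18-fold) fell. Falls made up 9.4% and 12.1% of the heat shock and antioxidant lists, against 5.01% of all genes. At a level of 8 or more, 3 of 29 heat shock and 4 of 31 antioxidant genes fell. These shares were 10.3% and 12.9%, against 8.24% of all genes there. No member of these last lists rose with limma, and 3 heat shock and 0 antioxidant genes were higher at an unadjusted p under 0.05. DNAJB1 read −0.02, 0.12 and 0.17 in mock and −0.43, −0.51 and −0.48 in scrambled samples, the widest separation among these 3 lists apart from HMOX1. Of 28 p53 targets, PLK2, ZMAT3, PMAIP1 and TNFRSF10B fell (1.15-fold to 1.23-fold) and FBXO22 and RRM2B rose (1.12-fold and 1.14-fold), and of 34 BCL2 family and caspase genes PMAIP1 and TNFRSF10B fell and APAF1 rose (1.20-fold). Falls made up 14.3% of the p53 list and 5.88% of the BCL2 list, against 5.01% of all genes. Rises made up 7.14% and 2.94%, against 2.55%. At a level of 8 or more, falls made up 16.7% and 7.14%, against 8.24% of all genes there. Rises at that level made up 8.33% and 3.57%, against 3.66%. TNFRSF10B was at 0.01 without probe sets of shared specificity. None of the 11 metallothioneins or 37 proteasome genes measured passed with limma; at an unadjusted p under 0.05, 2 metallothioneins were higher and 0 lower, and 3 proteasome genes were higher and 2 lower. These small counts rest on single arrays: leaving out 1 array at a time left 1 to 3 unfolded protein response falls, 1 or 2 heat shock falls, 2 or 3 p53 target falls and 0 to 2 BCL2 family falls. Calls lost without each of at least 3 arrays were those of CALR, CANX, DERL1, DNAJB6, HSPB1, GSR, PMAIP1, TNFRSF10B, FBXO22, RRM2B and APAF1.

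Immediate early genes, which growth factor signals switch on within minutes to hours, were another list with falls. Of 39 measured members 8 fell (20.5%, against 5.01% of all genes) and 0 rose with limma (14 and 2 at an unadjusted p under 0.05), with a median of −0.09. The falls were those of the MAP kinase phosphatases DUSP5, DUSP6 and DUSP1, the AP-1 subunits FOSL2 and FOSL1, and KLF6, PHLDA1 and RHOB. RHOB was lost without mock replicate 1, 2 or 3 and was at −0.11 without probe sets of shared specificity (adjusted p = 0.384). DUSP5 read 0.11, 0.01 and 0.12 in mock and −0.47, −0.41 and −0.44 in scrambled samples (1.43-fold lower, SE 0.05, adjusted p = 0.00066). FOSL2 read 0.54, 0.40 and 0.50 against 0.04, −0.13 and −0.01 (1.43-fold lower, adjusted p = 0.00354), and DUSP6 was 1.25-fold lower with its 3 probe sets all called. The classical early genes FOS (−0.06), JUN (−0.13), MYC (−0.11) and EGR1 (0.19) did not pass. With the mimic, DUSP5 was at −0.03 from mock and FOSL2 at −0.61, so these 2 genes differ in where the mimic arrays lie.

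In the TGF-beta pathway TGFB1, the ligand, read 0.53, 0.44 and 0.46 in mock and −0.09, −0.21 and 0.00 in scrambled samples (1.49-fold lower, adjusted p = 0.00158, 1 of 2 probe sets). TGFB1 was at −0.11 without probe sets of shared specificity and did not pass (adjusted p = 0.497). BMP2, another ligand, was 1.36-fold lower, the type II receptor gene BMPR2 1.24-fold lower and the secreted target gene TGFBI 1.32-fold lower, while the receptor gene ACVR2B rose 1.15-fold, which makes 4 falls (10.5%, against 5.01% of all genes) and 1 rise (2.63%, against 2.55%) among 38 members. At a level of 8 or more, 3 of 26 fell (11.5%, against 8.24% of all genes there). Of 36 NF-kB and chemokine genes VCAM1 (1.29-fold) and NFKBIZ (1.20-fold) fell (5.56%, close to the share of all genes) and TRAF1 rose (1.25-fold). The rises of ACVR2B and TRAF1 were lost without each of at least 3 arrays. Of 25 YAP target genes DLC1, FOXF2 and PTPN14 fell (1.16-fold to 1.23-fold), a count that was 1 without mock replicate 3 or scrambled replicate 3 and 2 or 3 without any other array. That is 12% of the YAP list, against 5.01% of all genes. STAT3, a signal transducer held in the microRNA target lists, read 0.06, 0.09 and 0.07 against −0.58, −0.36 and −0.59 (log2 change −0.59, adjusted p = 0.000793, 3 of 4 probe sets called).

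Matrix, adhesion and cytoskeleton genes formed the next largest block. Of 65 matrix and integrin genes 15 fell (23.1%, against 5.01% of all genes) and 2 rose, FBN2 and MMP3 (3.08%, against 2.55%), with a median of −0.05. FN1, fibronectin, read 0.38, 0.54 and 0.54 in mock and 0.00, −0.03 and 0.08 in scrambled samples (1.39-fold lower, SE 0.06, adjusted p = 0.00177, with 5 of 7 probe sets called). FN1 was at −0.21 without probe sets of shared specificity and did not pass (adjusted p = 0.273). LOXL2, a lysyl oxidase that cross-links collagen, was 1.38-fold lower (adjusted p = 0.00251), COL1A1 1.28-fold lower (adjusted p = 0.0042) and LAMB3, a laminin-332 chain, 1.28-fold lower (adjusted p = 0.00361). FN1 fell further with the mimic (−1.46 from mock), COL1A1 was at −0.41 with the mimic (mimic minus scrambled −0.05, SE 0.05, adjusted p = 0.647), LOXL2 was at −0.16 with the mimic and LAMB3 rose with it (1.03). Without probe sets of shared specificity the count of falls was 4, without mock replicate 2 it was 10, and without any other single array it was 11 to 14. The rise of MMP3 was lost whichever of the 6 arrays was left out, and that of FBN2 was lost with the mean of all its probe sets (adjusted p = 0.901).

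Of 57 actin and contractility genes 20 were lower and 3 higher at an unadjusted p under 0.05, with a median of −0.07. At an adjusted p under 0.05 with limma, 11 fell (19.3%, against 5.01% of all genes) and 0 rose. Besides RDX, these included ARPC4, a subunit of the actin nucleator Arp2/3 (1.57-fold, mock 0.13, 0.16 and 0.21, scrambled −0.43, −0.70 and −0.33), the focal adhesion protein gene ZYX (log2 change −0.58, mock 0.63, 0.58 and 0.56, scrambled 0.00, 0.04 and −0.01) and PDLIM7 (1.40-fold, with 5 of 7 probe sets called). The remaining 7 were ACTN1, ACTN4, MSN, PFN1, RHOB, TAGLN2 and TLN1, from 1.13-fold to 1.29-fold. Without probe sets of shared specificity PDLIM7 was at −0.30 (adjusted p = 0.0592), ACTN1 at −0.17 (adjusted p = 0.16) and TLN1 at −0.01 (adjusted p = 0.965). ACTN4, MSN, PFN1, RHOB, TAGLN2 and TLN1 lost the call without each of at least 3 arrays. The actin gene ACTB itself was at −0.05 (adjusted p = 0.543) over its 3 annotated probe sets. The count was 5 without mock replicate 1 or mock replicate 2, 7 without scrambled replicate 3 and 8 without any other single array. Of 38 tubulin and microtubule genes 7 fell (18.4%, against 5.01% of all genes) and TBCE, a tubulin folding cofactor, rose (1.16-fold). The share of rises was 2.63%, against 2.55%. TUBB4A read 0.47, 0.56 and 0.57 in mock and 0.02, 0.00 and −0.02 in scrambled samples (1.45-fold lower, adjusted p = 0.00253), TUBB3 was 1.24-fold and TUBB4B 1.19-fold lower, and MAP1B, TBCD, TUBB6 and TUBG1 followed with smaller falls. For TBCD 1 of 6 probe sets was called the other way, and its sign turned with the mean of all probe sets (0.01) and without those of shared specificity (0.10). TBCD, TBCE, TUBB4B, TUBB6 and TUBG1 lost the call without each of at least 3 arrays. The count of 7 falls was 5 without scrambled replicate 2, 4 without mock replicate 2 or scrambled replicate 1 and 3 without mock replicate 1, mock replicate 3 or scrambled replicate 3.

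**Figure D5:**
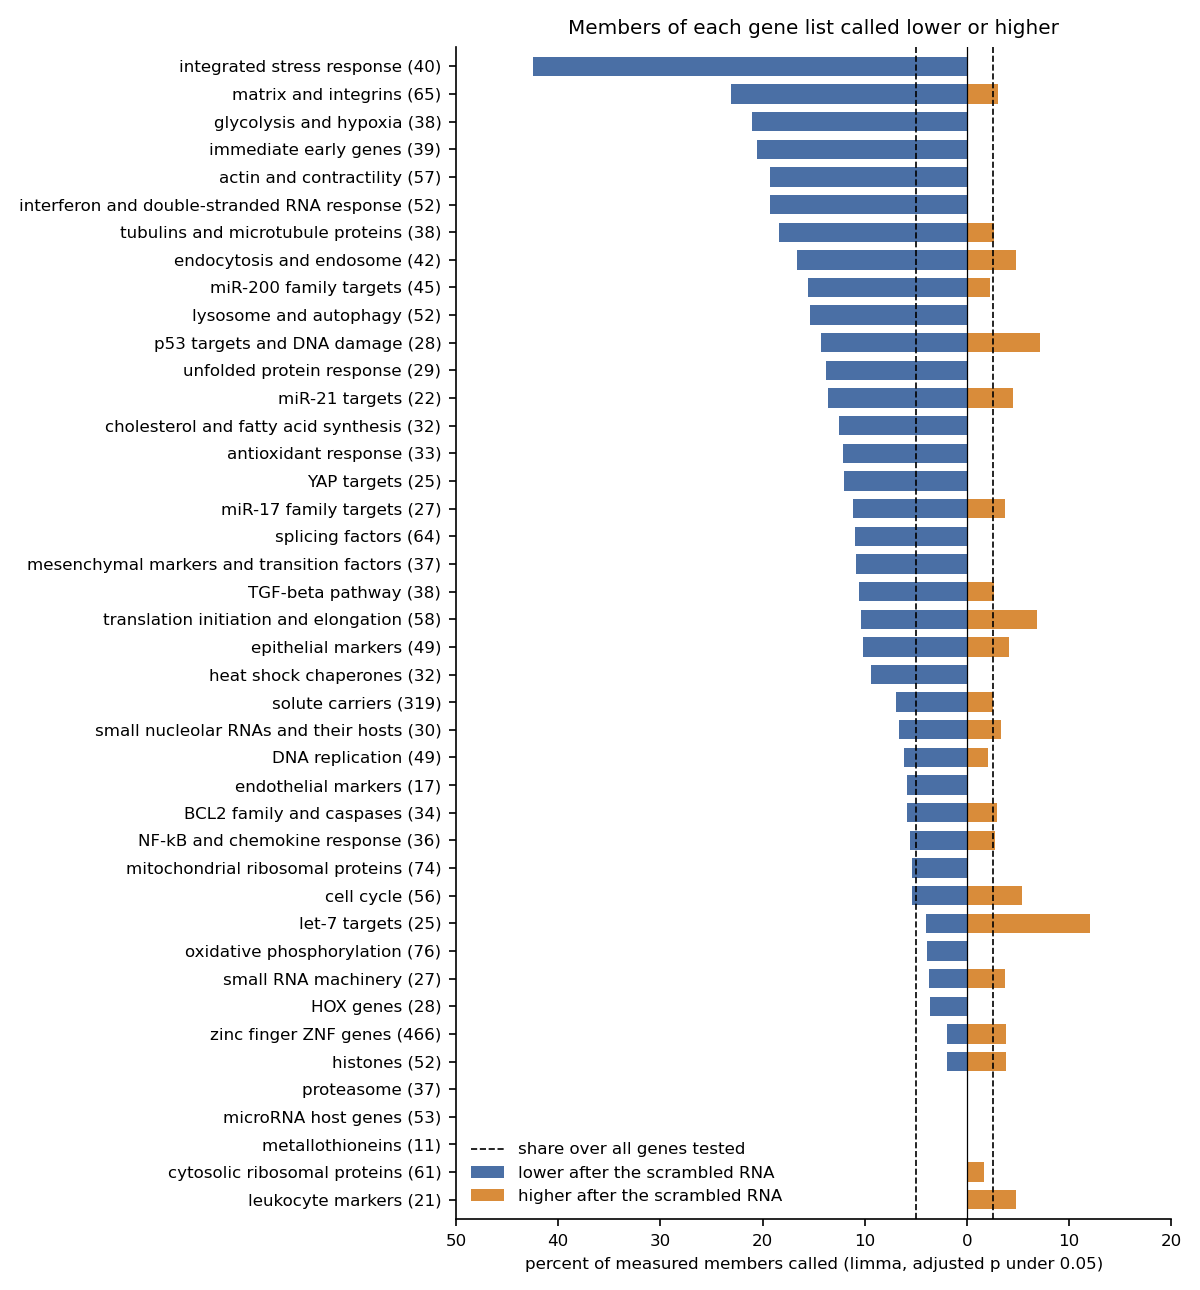
Percent of the measured members of each of 42 gene lists (y axis, number measured in brackets) called lower (left of 0) or higher (right of 0) after the scrambled RNA (x axis, limma adjusted p under 0.05). Dashed lines mark the shares over all genes, 5.01% lower and 2.55% higher; the integrated stress response has the longest bar, at 42.5% lower, and proteasome, metallothionein and microRNA host genes have none.

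In energy and lipid metabolism, 8 of 38 glycolysis and hypoxia genes fell (21.1%, against 5.01% of all genes) and 0 rose with limma. The median was −0.12, and at an unadjusted p under 0.05 there were 18 lower and 3 higher. ENO2, neuronal enolase, was 1.41-fold lower (adjusted p = 0.0121), PKM, pyruvate kinase, 1.24-fold lower (mock 0.29, 0.25 and 0.29; scrambled −0.07, 0.09 and −0.12), and TPI1 and HK1 1.17-fold lower each. Without probe sets of shared specificity PKM was at −0.21 (adjusted p = 0.0807) and TPI1 at 0.04, and TPI1 and HK1 were lost without each of at least 3 arrays. EPAS1, the hypoxia-inducible factor HIF-2 alpha, was 1.28-fold lower and P4HA2, a collagen prolyl hydroxylase, 1.23-fold lower, and both rose with the mimic (0.76 and 0.32 above mock). Without scrambled replicate 3 the count was 4, without mock replicate 2 it was 5, without both arrays that stand apart it was 1, and it was 6 or 7 without any of the other 4 arrays. Of 32 cholesterol and fatty acid genes ACLY (1.35-fold), FASN (1.33-fold), SCD (1.32-fold) and DHCR7 (1.15-fold) fell and 0 rose (1 at an unadjusted p under 0.05). These falls were 12.5% of the list, against 5.01% of all genes. Their count was 2 without mock replicate 2 or scrambled replicate 3 and 0 without probe sets of shared specificity. FASN was lost without mock replicate 1, mock replicate 2 or scrambled replicate 3, and with the mean of all its probe sets (−0.16, adjusted p = 0.208). ACLY, ATP citrate lyase, read 0.16, 0.22 and 0.20 against −0.18, −0.33 and −0.21.

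Of 319 solute carriers, a family of membrane transporters, 22 were lower (6.90%, against 5.01% of all genes) and 8 higher (2.51%, against 2.55%). At a level of 8 or more, 21 of 148 were lower (14.2%, against 8.24% of all genes there) and 5 higher (3.38%, against 3.66%). SLC26A2, a sulfate transporter, had all 3 probe sets called and read 0.31, 0.33 and 0.33 against −0.11, −0.03 and −0.10 (1.32-fold lower, adjusted p = 0.000793). SLC30A6, a zinc transporter of the Golgi, was 1.46-fold lower with 1 of 4 probe sets called, and the mimic differed from mock by 0.06 (adjusted p = 0.528). With the mean of its 4 probe sets SLC30A6 did not pass (adjusted p = 0.231). Leaving out 1 array at a time left 15 to 21 falls and 3 to 5 rises in this family. In oxidative phosphorylation 3 of 76 genes were lower (3.95%, against 5.01% of all genes) and 0 higher with limma (8 at an unadjusted p under 0.05). The 3 lower genes were NDUFA6, UQCRC1 and ATP5F1D (1.15-fold to 1.22-fold). Without scrambled replicate 2 there was 1 fall, and without any other single array 0. Of 52 lysosome and autophagy genes 8 fell (15.4%, against 5.01% of all genes), led by the autophagy kinase gene ULK1 (1.40-fold) and including MAP1LC3B (1.12-fold) and PSAP. Another fall, NAGLU (1.32-fold), was at 0.03 without probe sets of shared specificity. Each single array left out brought the count of 8 to 2 or 3. MAP1LC3B and PSAP were lost whichever array was left out. Of 42 endocytosis genes 7 fell (4 or 5 with 1 array left out, 4 without mock replicate 1, 2 or 3 or scrambled replicate 2) and VPS26A and VPS4B rose. Falls made up 16.7% of that list, against 5.01% of all genes, and rises 4.76%, against 2.55%. VPS26A kept its call only without mock replicate 3 when arrays were left out singly. RAB11FIP1, an effector of recycling endosomes, read 0.00, −0.07 and 0.00 in mock and −0.61, −0.58 and −0.78 in scrambled samples (1.55-fold lower, adjusted p = 0.000438) and 0.51, 0.43 and 0.50 with the mimic, and the membrane fission gene DNM2 was 1.39-fold lower.

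RNA processing and translation genes split. Of 64 splicing factor genes 7 fell and 0 rose with limma (14 and 7 at an unadjusted p under 0.05). SF3B4, a subunit of the U2 snRNP, read 0.27, 0.29 and 0.27 in mock and −0.22, −0.30 and −0.24 in scrambled samples (1.45-fold lower, SE 0.04, adjusted p = 0.00025), SNRPC of the U1 snRNP read 0.07, 0.00 and 0.00 against −0.50, −0.46 and −0.53 (1.43-fold lower, adjusted p = 0.000308), and SF3A2 was 1.43-fold lower. In these 3 genes the groups did not overlap, and the mimic arrays lay between −0.05 and 0.09, which is between the mock and scrambled arrays for SF3B4 and SF3A2 and with the mock arrays for SNRPC. Of 58 genes whose symbols begin with EIF or EEF, which takes in regulators as well as factors, 6 fell and 4 rose: EEF1A2 (1.28-fold), EIF5A2 (1.27-fold), EIF4G1 (1.25-fold), EIF2S1, EIF4EBP1 and EIF2A were lower, and EIF4E (1.17-fold), EIF3M, EIF2D and EEF1AKMT2 were higher. Those were 10.3% and 6.90% of the family, against 5.01% and 2.55% of all genes. At a level of 8 or more, 5 of 53 fell (9.43%, against 8.24% of all genes there) and 4 rose (7.55%, against 3.66%). With 1 array left out there were 3 or 4 falls and 0 to 2 rises in that family, and EIF2S1, EIF4EBP1, EIF2A, EIF4E, EIF3M and EIF2D were lost without each of at least 3 arrays. Of 61 cytosolic ribosomal protein genes RPL37A rose (1.21-fold) and 0 fell with limma (1 at an unadjusted p under 0.05). Rises were 1.64% of that list and falls 0%, against 2.55% and 5.01% of all genes. Of 74 mitochondrial ribosomal protein genes MRPL2 (1.33-fold), MRPS34 (1.24-fold), MRPS10 and MRPL49 fell (5.41%, against 5.01%). At a level of 8 or more, 4 of 73 mitochondrial ones fell (5.48%, below the 8.24% of all genes there). RPL37A was lost without mock replicate 1, scrambled replicate 2 or scrambled replicate 3, and was at 0.06 without probe sets of shared specificity (adjusted p = 0.665). MRPL49 was lost whichever array was left out.

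Zinc finger genes named ZNF went the other way from most lists: 18 of 466 rose (3.86%, against 2.55%) and 9 fell (1.93%, against 5.01%), with a median of 0.04. ZNF138 rose 1.33-fold (adjusted p = 0.00543), but it was at 0.09 without probe sets of shared specificity (adjusted p = 0.637) and was also lost without both arrays that stand apart. ZNF114 fell 1.51-fold with both probe sets called (mock −0.02, −0.06 and 0.01; scrambled −0.60, −0.66 and −0.57) and ZNF165 and ZNF385B fell 1.26-fold each. At an unadjusted p under 0.05, 82 ZNF genes were higher (17.6%, against 11.9% of all genes) and 30 lower (6.44%, against 2375 of 19775 genes), and with 1 array left out 4 to 13 rises and 6 to 8 falls were called. Of 52 histone genes, many of which have near-identical copies, H2BC12 and H2AC6 rose (1.21-fold and 1.20-fold) and H2AX fell (1.31-fold, mock 0.16, 0.21 and 0.15, scrambled −0.20, −0.21 and −0.25). Histone rises were 3.85%, against 2.55% of all genes, and falls 1.92%, against 5.01%. H2AC6 was lost without mock replicate 1, scrambled replicate 2 or scrambled replicate 3. Among small nucleolar RNAs and their hosts SNORA72 rose and SNHG17 and SNHG33 fell, of 30 (3.33% and 6.67%, against 2.55% and 5.01%). SNORA72 lost the call in 11 of 16 alternatives, every single array left out among them, and SNHG33 in 7 of 17. Of 53 microRNA host genes 0 passed with limma (4 higher and 1 lower at an unadjusted p under 0.05). HOXB2 fell (1.23-fold) as the single called gene of 28 HOX genes (3.57%, against 5.01% of all genes).

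Proliferation genes showed no common direction. Of 56 cell cycle genes CDKN1B, the inhibitor p27, rose 1.26-fold (mock −0.20, −0.16 and −0.12; scrambled 0.16, 0.19 and 0.17; adjusted p = 0.00177), as did CDC25A (1.21-fold) and CCNB1 (1.17-fold), and CDK2 (1.28-fold), PLK1 (1.23-fold) and UBE2C (1.23-fold) fell. Each direction held 5.36% of the list, against 2.55% higher and 5.01% lower over all genes. At a level of 8 or more, 3 of 52 rose and 3 fell (5.77% each, against 3.66% and 8.24% of all genes there). Of 49 DNA replication genes POLD3 (1.25-fold), POLD1 (1.23-fold) and MCM5 (1.20-fold) fell and PRIM2 rose (1.16-fold), a call lost in 5 of 15 alternatives. That list held 6.12% falls and 2.04% rises, near the shares of all genes. At a level of 8 or more, 3 of 47 fell (6.38%, below the 8.24% of all genes there) and 0 rose (against 3.66%). With the mean of all its probe sets POLD3 was at −0.15 and did not pass (adjusted p = 0.116).

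Published targets of let-7, miR-21, the miR-17 family and the miR-200 family were examined. A transfected RNA uses the same Argonaute and GW182 proteins as microRNAs do. Levels of these microRNAs in the cells were not measured here. Of 25 let-7 targets CDC25A, PLAGL2 (1.27-fold) and PLAGL1 (1.16-fold) rose and IGF2BP2 fell (1.25-fold), so 3 of 25 rose, against 2.55% of all genes, with a median of 0.02 and 1 or 2 rises with 1 array left out; PLAGL1 was lost whichever array was left out, and PLAGL2 with the mean of all its probe sets (0.16, adjusted p = 0.196). Of 22 miR-21 targets CDC25A rose (4.55%, against 2.55%) and STAT3, TGFBI and RHOB fell (13.6%, against 5.01% of all genes). Of 27 miR-17 family targets FYCO1 rose (1.21-fold, but 0.22 with adjusted p = 0.24 without probe sets of shared specificity) and STAT3, TXNIP (1.25-fold) and BMPR2 fell. The miR-17 shares were 3.70% higher and 11.1% lower, against 2.55% and 5.01% of all genes. Of 45 miR-200 family targets SEC23A, a COPII coat subunit, rose (1.21-fold) and CRTAP, DLC1, FN1, HIPK3, MSN, QKI and TUBB3 fell, with a median of −0.03. The miR-200 shares were 2.22% higher and 15.6% lower, against 2.55% and 5.01% of all genes. CRTAP and MSN were lost without each of at least 3 arrays, the count of falls was 4 without mock replicate 3, and QKI, an RNA-binding protein, was 1.34-fold lower with 6 of 10 probe sets called. ZEB1, the best known target of miR-200c, was at 0.00 (SE 0.06) after the scrambled RNA and −1.56 after the mimic, and its target gene CDH1 was at 0.29 (SE 0.12, adjusted p = 0.153) and 3.55.

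Markers of cell identity were examined last. Of 49 epithelial markers CLDN3 (1.28-fold), LAMB3, CLDN1, TJP1 and SPINT2 fell (10.2%, against 5.01% of all genes) and CDS1 and MYO5C rose (1.14-fold and 1.13-fold; 4.08%, against 2.55%), and with 1 array left out 2 or 3 of these falls and 0 or 1 of the rises passed. Of 37 mesenchymal markers FN1, TGFBI, COL1A1 and MMP2 fell (10.8%, against 5.01%) and 0 rose with limma; at an unadjusted p under 0.05, 9 were lower (24.3%, against 2375 of 19775 genes) and 2 higher. The calls of CLDN1, TJP1, SPINT2, CDS1, MYO5C and MMP2 were lost without each of at least 3 arrays, and FN1 carries the limit given above. CLDN1 was at −0.13 (adjusted p = 0.241) and TJP1 at −0.10 (adjusted p = 0.354) without probe sets of shared specificity. Over 21 leukocyte markers, 4 of them at a level of 8 or more, CD3E rose (1.22-fold) and 0 fell with limma (2 at an unadjusted p under 0.05), with medians of −0.04 to 0.01 on the mock arrays and −0.01 to 0.04 on the scrambled arrays. Over 17 endothelial markers, 3 of them at a level of 8 or more, EGFL7 fell (1.26-fold) and 0 rose with limma or at an unadjusted p under 0.05, with medians of 0.00 to 0.02 and −0.02 to 0.00. Those single calls were 4.76% and 5.88% of their lists, against 2.55% higher and 5.01% lower over all genes. CD3E and EGFL7 were each lost without at least 3 single arrays. Absolute levels of these markers are not held by centred values.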

How the data were processed

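RNA of 9 samples was extracted with Trizol and labelled with biotin by in vitro transcription for Affymetrix arrays, per the labels' protocols. The authors' deposited table holds log2 expression of 54675 probe sets; normalization and summarisation are not given in the sources used here. Every row's median over the 9 arrays is exactly 0 (100.0% of rows), so values are centred per probe set and absolute levels are lost. The level class was read from single-precision rounding (97.3% of 6000 simulated probe sets were placed in their class).

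Of the probe sets, 41091 carry 1 gene symbol, 1801 several, 11721 none, and 62 are controls. A gene's value is the mean of its probe sets in its highest class (10523 of 19775 genes had over 1). limma 3.58.1 in R 4.3.3 was fitted to all 9 arrays (total degrees of freedom 10.7), with Benjamini-Hochberg adjustment over all genes. A simulation over the same genes drew independent normal noise per gene from the fitted standard errors, with 200 changed genes in each of 5 runs. There 37.6% of 0.25 log2 changes and 97.2% of 0.5 log2 changes were recovered, and 3.57% of calls were false. It held no tied values, outlying arrays, correlation between genes or group-wide technical shift. The 3.57% is therefore not an error rate of the calls above. The number of arrays (3 per group) limits precision. "Probe sets of shared specificity" are those with names ending in _x_at or _s_at.

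Named genes are the 15 largest called rises and 15 largest falls with groups that do not overlap, and in each of 42 lists up to 4 members; other called members, and members named as not passed, were chosen after their values were seen. The comparison and lists were chosen with earlier results of these data known. Of the genes, 88 stand in over 1 list. The 17 planned and added alternatives cover normalization, centring, probe set choice, level filters, ties, robust variance, the replicate block and arrays left out.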

Additional observations from a re-analysis of the deposited data

Results flagged for a closer look

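Several signals lie outside the genes compared. Among 11721 probe sets with no gene symbol, 91 were called higher and 137 lower after the scrambled RNA (limma, adjusted over all probe sets), and among 1801 probe sets with several symbols 24 were higher and 65 lower. The control probe set in the middle of 28S ribosomal RNA differed by 0.72 and that of 18S by 0.60 between scrambled and mock samples, the latter without passing the test (adjusted p = 0.115). The ACTB 5′ control probe set differed by −0.30 (adjusted p = 0.0205). Groups of 3 arrays were not tested for single outlying samples.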

How the results depend on the processing

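The 505 rises became 133 without both arrays that stand apart (an alternative chosen after seeing the data) and 187 to 366 with 1 array left out. The 990 falls became 332 without both arrays, 526 to 679 with 1 array left out, and 567 without probe sets of shared specificity, where 17098 genes were tested. The single 1.5-fold rise became 14 with quantile normalization, 3 without probe sets of shared specificity and 1 to 2 with 1 array left out. It became 0 in a fit of the highest level class alone, which does not hold IGSF5. The 36 falls of 1.5-fold became 61 with quantile normalization and 22 with the mean of all probe sets, and were 31 to 43 with 1 array left out. Over all probe sets of the array (also chosen after seeing the data) 1.23% were called higher and 2.84% lower, against 2.55% and 5.01% of genes. The sign turned without probe sets of shared specificity for CANX (0.062), NAGLU (0.0337), TBCD (0.0955), TNFRSF10B (0.0101) and TPI1 (0.0409), and with the mean of all probe sets for TBCD (0.0055). The cause of these shifts was not tested, beyond the fewer genes or arrays that an alternative holds. With the replicate number as a block the counts were 353 higher and 800 lower, and 48 of 219 called genes examined singly no longer passed. Deviations of same-numbered mock and scrambled arrays correlated at 0.06, −0.01 and 0.07. Replicates 1 and 3 correlated best with their own number both ways (against at most 0.007 and 0.001 for their mock arrays with other numbers), and replicate 2 did not. Correlations this small do not show whether the numbers pair the samples. Of those 219 genes, 65 kept direction and call in every alternative that could test them, and 154 lost the call in at least 1, those that changed sign included. Absolute signal over background is not held by these values, so it could not be used as a limit.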
